A study of Mus musculus with 16 samples.

Results

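The 10 genes described here make, elongate and desaturate fatty acids or stand next to those steps: Acly, Acaca, Fasn, Elovl6, Scd1, Scd2, Fads1, Fads2, Acsl3 and Srebf1. They were taken by gene symbol and by no rule on a measured value, but with earlier results of these data known. All of them were found among the 27128 genes of each expression table. All 10 passed a filter on low levels, a mean of 1 CPM or more (counts scaled to a common library total), as did 14301 genes in all.

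The study profiled RNA from male mouse germline stem cells (GSCs) in culture, the in vitro counterpart of the undifferentiated spermatogonia that sustain sperm production. All cells came from B6;CBA-Tg(Pou5f1-EGFP)2Mnn/J mice, in which a Pou5f1 (Oct4) promoter drives green fluorescent protein, and the labels give the age as postnatal day 5.5. Cultures were started from sorted germ cells that carried Oct4 reporter signal and lacked KIT, and all received GDNF, bFGF and EGF. In the feeder-removal experiment, 1 library came from cells on mouse embryonic fibroblast (MEF) feeders (day 0) and the others from cells 4 and 9 days after transfer to Matrigel, a basement membrane extract. In the density experiment, cells grew on Matrigel at 0.1 µg/cm2 (titled epithelial-like) or 10 µg/cm2 (titled mesenchymal-like). In the sorting experiment, cells on Matrigel at 10 µg/cm2 were sorted by reporter signal (GFP-low, GFP-mid, GFP-high). In the inhibitor experiment, cells on MEF feeders received DMSO or UNC0638, an inhibitor of the histone H3 lysine methyltransferases G9a and GLP, at 0.5, 1 or 2 µM for 48 hours. Each of the 12 conditions is 1 library, and a difference between conditions therefore has no replicate check. Only the 3 GFP fractions are labelled as sorted from the culture, and MEF feeders can add their own RNA to the other cultures on feeders.

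De novo fatty acid synthesis starts from citrate: ATP citrate lyase (Acly) cleaves it to cytosolic acetyl-CoA, acetyl-CoA carboxylase (Acaca) makes malonyl-CoA, and fatty acid synthase (Fasn) builds palmitate. Elovl6 lengthens palmitate, the stearoyl-CoA desaturases (Scd1, Scd2) put in the double bond of monounsaturated fatty acids, and Fads1 and Fads2 desaturate dietary polyunsaturated fatty acids. Acyl-CoA synthetases such as Acsl3 activate free fatty acids, and Srebf1 encodes a membrane-bound transcription factor (SREBP-1) that, once cleaved, activates many of these genes.

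Library totals ran from 4335185 to 12019651 expected counts, and normalization factors from 0.912 to 1.07. Between libraries, levels are compared as CPM scaled by the trimmed mean of M values (TMM), and a difference is the log2 ratio of (CPM + 1), called when it passes 1.5-fold. The 95% intervals in parentheses come from an exact binomial split of the reads of both libraries, without the added 1, and cover counting error only. The 19 matched germ-cell markers were above 0 in every library and summed to 5005 to 6571 CPM, whereas markers of other cell types varied. The 20 fibroblast markers summed to 113 to 337 CPM in the feeder-removal, epithelial-like and sorted libraries, but to 6917 CPM in the mesenchymal-like library. They summed to 3298 CPM with DMSO and to 1125, 446 and 561 CPM at 0.5, 1 and 2 µM UNC0638. The 15 myeloid markers reached 2013, 1854 and 235 CPM in GFP-low, GFP-mid and GFP-high cells and at most 51.4 CPM elsewhere. The 10 adipocyte markers stayed at 6.61 to 16.6 CPM, with Adipoq at most 1.15 CPM. In such bulk samples, fewer cells of a type, less RNA per cell and expression of the markers by other cells cannot be told apart.

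On the length-corrected scale of the deposited TPM (transcripts scaled to a common total), the 10 genes kept nearly the same order in all 12 libraries. Acly was the highest of them in every library, at 161 to 386 TPM, and Acsl3 the next, at 107 to 194 TPM. Srebf1 (34.0 to 82.2 TPM) was at rank 3 or 4 throughout, and Elovl6 (12.8 to 29.8 TPM) always at rank 8. Fasn (17.9 to 57.7 TPM), Scd2 (21.7 to 71.5 TPM), Fads1 (28.2 to 54.3 TPM) and Fads2 (23.5 to 73.6 TPM) exchanged ranks between 3 and 7. Of the 9 neighbouring pairs in this order, 0 to 4 per library had overlapping counting intervals, with 0 in GFP-high cells and 4 each in epithelial-like, mesenchymal-like, 1 µM and 2 µM cells. Scd1 was the lowest in 11 libraries (1.74 to 10.9 TPM). At 2 µM UNC0638, Scd1 (13.9 TPM, interval 11.9 to 16.1) stood above Acaca (11.6 TPM, interval 10.3 to 13.1), which had become the lowest, but those intervals overlap.

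**Figure D1:**
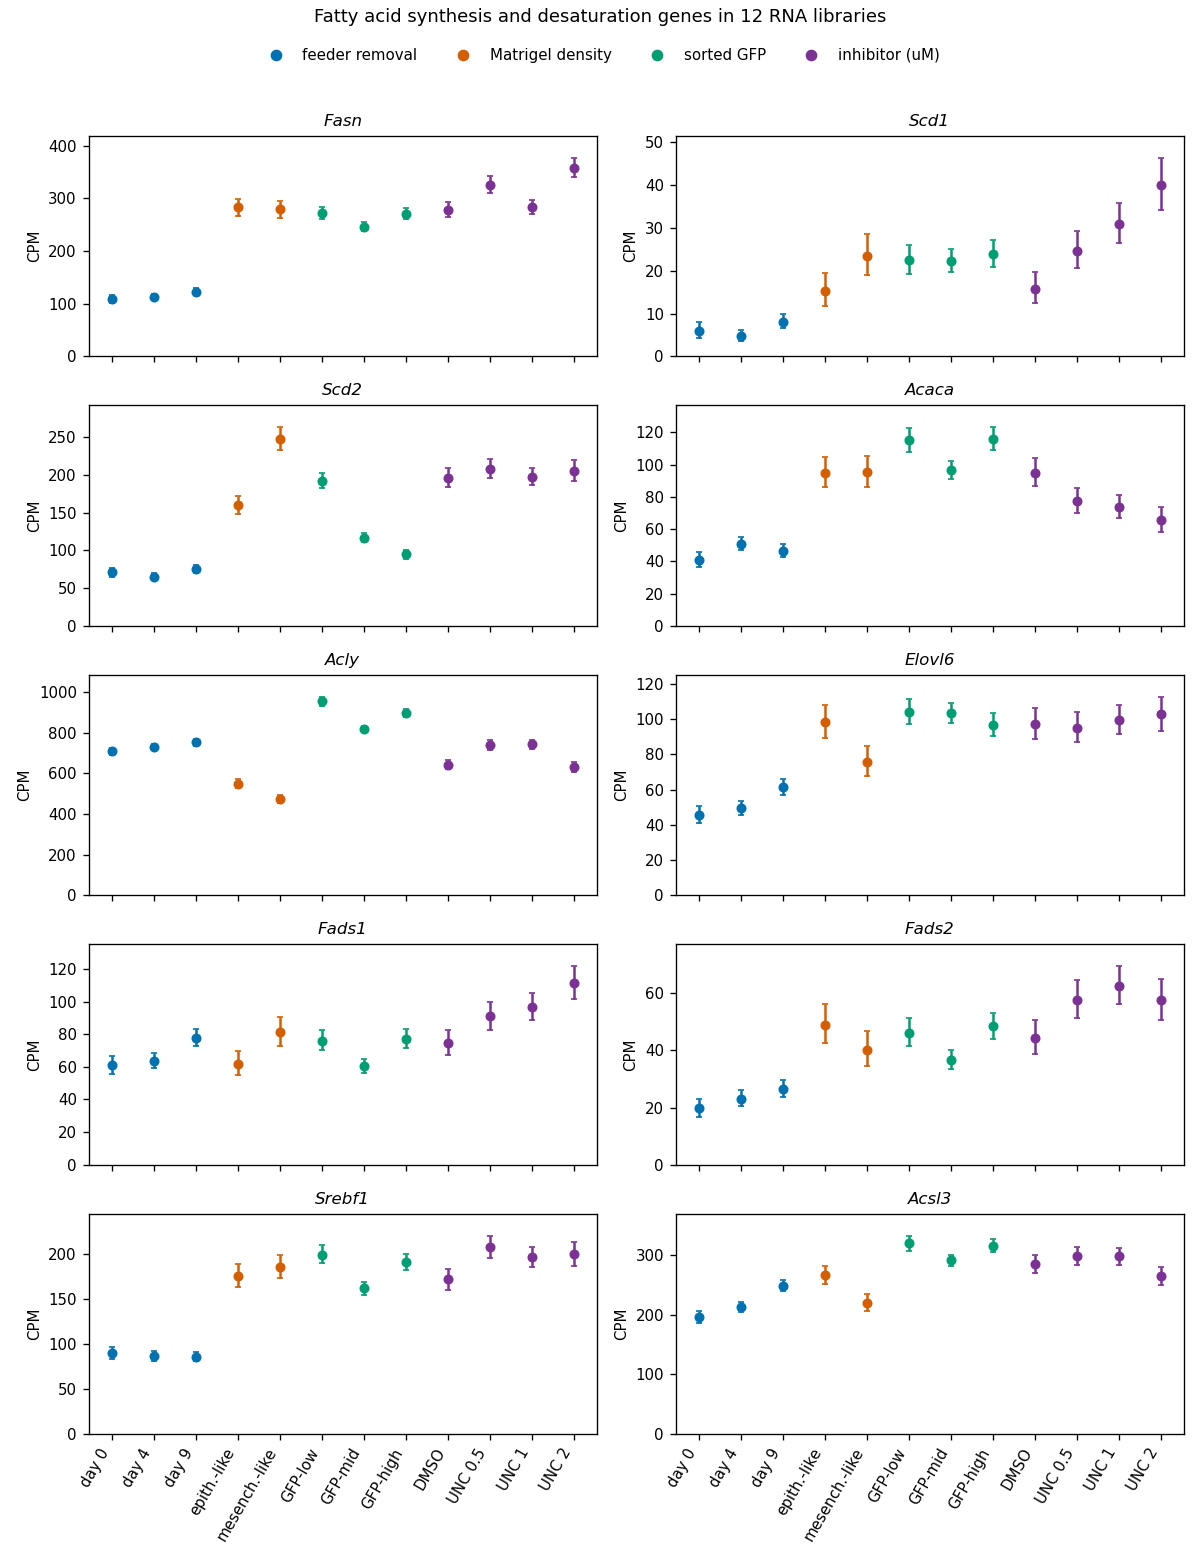
TMM-scaled CPM of each of the 10 genes (y axis, from 0) in the 12 RNA libraries (x axis), 1 point per library with its 95% Poisson counting interval, coloured by experiment. The 3 feeder-removal libraries lie below all 9 others for Fasn, Scd1, Scd2, Acaca, Elovl6, Fads2 and Srebf1, and Scd1 climbs from 15.8 to 39.9 CPM along the inhibitor doses.

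The 3 feeder-removal libraries stood apart from the rest for most of these genes. On the TMM scale, all 3 feeder-removal libraries were below all 9 other libraries for 7 of the 10 genes. That arrangement was found for 13.2% of the 14301 genes tested. For 0 of 10 genes the 3 libraries were above the others (14.4% of genes tested). Among the synthesis enzymes, Fasn ran from 108 to 123 CPM in the feeder-removal libraries and from 246 to 359 CPM in the others, and Acaca from 40.8 to 51.0 against 65.5 to 116 CPM. Elovl6 ran from 45.8 to 61.4 against 75.6 to 104 CPM. For these 3 enzymes no library of one set reached into the range of the other on the TMM scale. On the deposited TPM the sets overlapped for Elovl6, at 18.7 TPM at day 9 and 18.4 TPM in the mesenchymal-like library. Of the desaturases, Scd1 ran from 4.82 to 8.14 against 15.3 to 39.9 CPM, Scd2 from 64.9 to 75.0 against 94.8 to 247 CPM, and Fads2 from 19.7 to 26.4 against 36.8 to 62.7 CPM. The regulator Srebf1 ran from 85.9 to 89.97 against 162 to 208 CPM. Scd2 came nearest to the feeder-removal range in the GFP-high library, and the sets did not overlap for any of these 4 genes. The ratio of medians of the other libraries to the feeder-removal libraries was 3.93 for Scd1, 2.76 for Scd2, 2.47 for Fasn and 2.21 for Srebf1. It was 2.10 for Fads2, 2.04 for Acaca and 1.99 for Elovl6. The sets overlapped for Acly (707 to 752 against 473 to 954 CPM), Acsl3 (196 to 249 against 219.7 to 320.2 CPM) and Fads1 (60.9 to 77.9 against 60.4 to 111 CPM).

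The same gap separated the pair of uninhibited libraries on MEF feeders, day 0 and DMSO, which differ by experiment and by the vehicle. In the DMSO library 7 of 10 genes were at least 1.5-fold higher than at day 0, where 23.1% of the genes tested were, and 6 of 10 at least 2-fold higher (12.2%). The log2 ratios were 1.45 for Scd2 (1.31 to 1.62), 1.36 for Fasn, 1.27 for Scd1 (0.86 to 1.96), 1.20 for Acaca, 1.13 for Fads2, 1.07 for Elovl6 and 0.93 for Srebf1. Acsl3 (0.54), Fads1 (0.29) and Acly (-0.14) were not called. The median over the 10 was 1.10, against 0.01 over all genes tested. Of 19 measured fibroblast markers 17 were also called higher in the DMSO library and 1 lower, as were 3 of 5 Sertoli and Leydig cell markers higher and 1 lower. Of 4 measured adipocyte markers 3 were called higher, at low levels (all 10 summed to 6.61 and 16.6 CPM), and of 19 germ-cell markers 4 were higher, such as Gfra1 (35.5 and 132 CPM), and 3 lower. The part of these cell types in the gap was not tested. The regulator Srebf2 (55.6 and 238 CPM at day 0 and with DMSO) was higher with DMSO as well, by log2 2.08. Of 22 other fatty acid synthesis genes, 3 were called higher and 9 lower, where 18.3% of the genes tested were called lower, with a median of -0.10. Among those lower was Scd3, another stearoyl-CoA desaturase, which was 21.6 CPM in the former and 6.39 CPM in the latter. Experiment and vehicle cannot be told apart here, and the ratios show how far 2 uninhibited libraries on feeders lay from each other.

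In the mouse genome (RefSeq, GRCm38.p6), Fasn (chr11:120805958-120825166), Acaca (chr11:84129635-84401651), Acly (chr11:100476352-100528000) and Srebf1 (chr11:60199084-60224186) all lie on chromosome 11. Fads2 (chr19:10062765-10101503) and Fads1 (chr19:10182877-10196874) are near each other on chromosome 19, away from the Scd genes on the same chromosome. Elovl6 lies at chr3:129532386-129638495 and Acsl3 at chr1:78657825-78707743.

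Upstream sequences were available from RefSeq (GRCm38.p6) for 7 of the 10 genes, with no entry for Scd1, Scd2 and Fads1. Below are 4 windows of 250 bases that end just before the annotated gene. They set genes that were lower in all 3 feeder-removal libraries (Fads2, and Elovl6 on the TMM scale but not in TPM) beside genes that overlapped (Acly and Acsl3). They lie at chr19:10101504-10101753 (minus strand) for Fads2, chr3:129532136-129532385 (plus) for Elovl6, chr11:100528001-100528250 (minus) for Acly and chr1:78657575-78657824 (plus) for Acsl3. Capitals mark CCAAT (the NF-Y box) and GGGCGG (the GC box of Sp1 family factors) on either strand; matches to one motif did not overlap the other.
Fads2 upstream: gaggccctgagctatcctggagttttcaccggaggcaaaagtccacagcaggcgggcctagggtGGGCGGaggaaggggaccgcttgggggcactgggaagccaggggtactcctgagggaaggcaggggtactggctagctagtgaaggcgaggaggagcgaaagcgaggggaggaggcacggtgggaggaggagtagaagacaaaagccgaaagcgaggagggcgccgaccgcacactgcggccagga
Elovl6 upstream: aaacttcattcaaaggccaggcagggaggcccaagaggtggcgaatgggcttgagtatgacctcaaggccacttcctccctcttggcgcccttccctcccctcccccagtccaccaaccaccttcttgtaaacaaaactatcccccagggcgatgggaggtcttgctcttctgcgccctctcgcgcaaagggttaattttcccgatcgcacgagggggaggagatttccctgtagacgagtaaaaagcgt
Acly upstream: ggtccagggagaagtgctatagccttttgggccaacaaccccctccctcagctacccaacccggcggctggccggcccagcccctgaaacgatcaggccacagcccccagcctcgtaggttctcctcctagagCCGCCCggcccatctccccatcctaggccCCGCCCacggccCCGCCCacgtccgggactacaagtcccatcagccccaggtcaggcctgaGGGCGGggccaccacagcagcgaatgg
Acsl3 upstream: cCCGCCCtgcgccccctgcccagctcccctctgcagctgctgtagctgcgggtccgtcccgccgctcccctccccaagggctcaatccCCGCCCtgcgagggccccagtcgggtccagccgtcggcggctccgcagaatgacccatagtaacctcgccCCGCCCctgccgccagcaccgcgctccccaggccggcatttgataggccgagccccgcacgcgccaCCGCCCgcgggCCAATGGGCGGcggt
GGGCGG occurred 1 time in the Fads2 window, 4 times in that of Acly and 5 times in that of Acsl3, and was in 32.7% of all 32851 windows of this length. CCAAT occurred 1 time, in the Acsl3 window, and was in 33.8% of all windows. The Elovl6 window held neither motif. Srebf1, Fasn and Acaca, which were also lower in the feeder-removal libraries, have windows inside the annotated gene, not shown: the 3 of Srebf1 held 4 GGGCGG and 2 CCAAT, that of Fasn held 3 CCAAT and 0 GGGCGG, and that of Acaca held neither. GC content was 64.8% for Fads2, 56.4% for Elovl6, 68.8% for Acly and 75.6% for Acsl3, against a median of 52.4% over all windows. A match is a description of the letters only.

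The inhibitor experiment asks how blocking G9a changes expression in GSCs. With UNC0638, Scd1 was the only one of the 10 genes called at any dose, and it was called higher at all of them. It stood at 15.8 CPM with DMSO and at 24.6, 30.9 and 39.9 CPM at 0.5, 1 and 2 µM, from 79, 128, 177 and 174 counts. Each treated library was above the DMSO library, and each dose above the one before. The log2 ratios to DMSO were 0.61 (0.23 to 1.07), 0.93 (0.58 to 1.37) and 1.28 (0.95 to 1.74), the last a 2.44-fold difference at percentile 98.5 of the genes tested. On the TMM scale the step from 0.5 to 1 µM was 0.31 (-0.01 to 0.67), within counting error, and that from 1 to 2 µM was 0.36 (0.06 to 0.68). One of 10 genes was thus called higher at each dose, where 6.13%, 8.14% and 11.4% of the genes tested were, and 0 of 10 lower (7.62%, 9.91% and 10.7%). Among the 9598 genes whose mean reached 10 CPM, as it did for all 10 members, 5.20%, 9.56% and 13.5% were called in either direction. At 2-fold, 0, 0 and 1 of 10 were higher, against 1.58%, 2.59% and 3.42%. The 3 doses share the DMSO library, so a deviation there would enter all 3 ratios. Of the genes tested, 2.21% were called higher at all 3 doses. The 0.5 µM call of Scd1 was lost with germ-cell marker centring (0.45), with the deposited TPM (0.56) and with 5 CPM added in place of 1 (0.51). The 2 µM change of Scd1 (1.28) was as large as its distance between the day 0 and DMSO libraries (1.27).

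**Figure D2:**
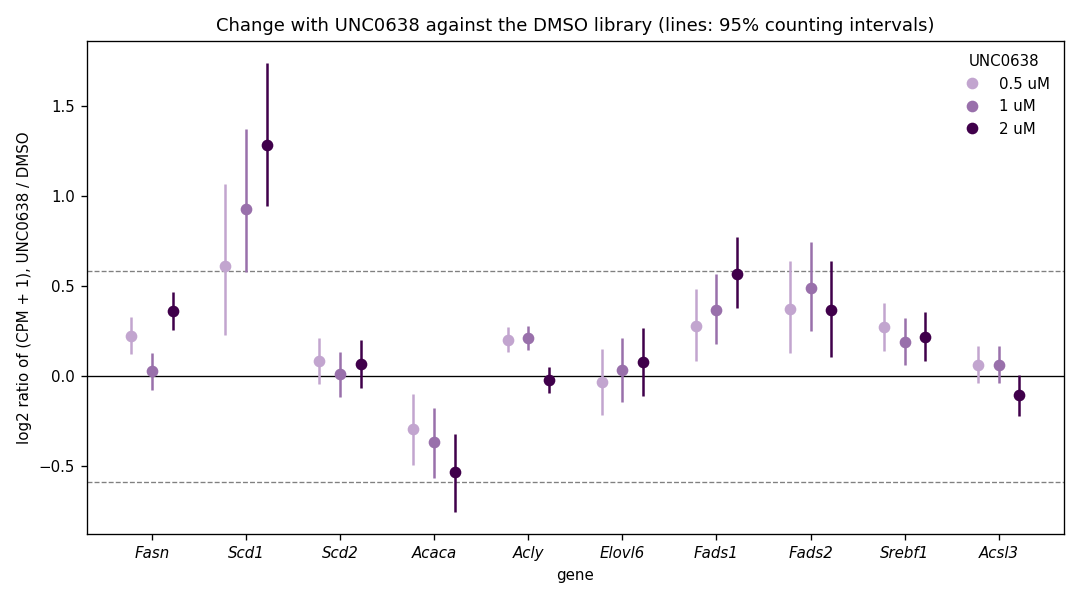
Log2 ratio of (CPM + 1) to the DMSO library (y axis) for each of the 10 genes (x axis) at 0.5, 1 and 2 µM UNC0638, darker with dose, with 95% counting intervals; dashed lines mark 1.5-fold. Scd1 alone passes the upper line, at 0.61, 0.93 and 1.28, and Acaca has all 3 points below 0, the lowest at -0.53.

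The polyunsaturated fatty acid desaturases were higher than DMSO by less than the call. Fads1 was at 74.7 CPM with DMSO and at 90.9, 96.7 and 111 CPM along the doses, a log2 ratio of 0.57 (0.38 to 0.77) at 2 µM. Fads2 was at 44.3 CPM with DMSO and at 57.8, 62.7 and 57.5 CPM, a log2 ratio of 0.37 (0.11 to 0.64) at 2 µM. At 2 µM, Fads1 passed the call when scaled by total counts (0.59) or to the germ-cell markers (0.70). On the TMM scale the intervals of both genes were above 0 at all 3 doses, yet Fads2 was highest at 1 µM. There the step of Fads1 from 0.5 to 1 µM (interval -0.09 to 0.27) was within counting error. On that scale the levels of Fads1 and Scd1 went up at every dose step, 2 of 10 where 6.5% of genes tested did so. With germ-cell marker centring, chosen for this order after the data were seen, Fads2 (0.22, 0.49 and 0.50) and Srebf1 (0.11, 0.19 and 0.35) did so too, 4 of 10 where 8.31% of genes tested did.

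Acaca was lower than DMSO at every dose. It was at 95.02 CPM with DMSO and at 77.4, 73.5 and 65.5 CPM along the doses. The log2 ratios were -0.29 (-0.49 to -0.10), -0.37 (-0.56 to -0.18) and -0.53 (-0.75 to -0.32), so each interval was below 0 and none of the ratios passed 1.5-fold. On the TMM scale Acaca went down at every step, 1 of 10 where 7.81% of genes tested did. Its steps from 0.5 to 1 µM (interval -0.28 to 0.13) and from 1 to 2 µM (-0.39 to 0.05) were within counting error. With germ-cell marker centring its ratios were -0.45, -0.37 and -0.40, all below 0 but in no order of dose, and 0 of 10 went down at every step (3.33% of genes tested). Its paralogue Acacb, the carboxylase isoform tied to the control of fatty acid oxidation, was at 22.2, 15.8, 9.77 and 13.3 CPM. Acacb was called lower at 1 µM, with a log2 ratio of -1.10 (-1.67 to -0.70), and at 2 µM, with -0.70 (-1.22 to -0.27).

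On the TMM scale Fasn and Srebf1 were above DMSO without passing the call, Srebf1 beyond counting error at every dose and Fasn at 0.5 and 2 µM. Fasn was at 278 CPM with DMSO and at 326, 284 and 359 CPM, with log2 ratios of 0.23 (0.12 to 0.33), 0.03 (-0.08 to 0.13) and 0.36 (0.26 to 0.47). The Fasn values do not follow the dose. Srebf1 was at 172 CPM with DMSO and at 208, 197 and 200.2 CPM, a log2 ratio of 0.22 (0.08 to 0.36) at 2 µM. Acly was at 641 CPM and then at 739, 743 and 632 CPM, with log2 ratios of 0.20, 0.21 and -0.02 (interval at 2 µM -0.10 to 0.05). With germ-cell marker centring these were 0.05, 0.21 and 0.11, so the order of the Acly values depends on the scaling.

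On the TMM scale Scd2, Elovl6 and Acsl3 stayed within counting error of DMSO at every dose. Scd2 was at 196 CPM with DMSO and at 208, 198 and 206 CPM, and the interval of its log2 ratio at 2 µM was -0.06 to 0.20. Elovl6 was at 97.2 CPM and then at 95.1, 99.7 and 103 CPM (interval at 2 µM -0.11 to 0.27). Acsl3 was at 285 CPM and then at 298, 298 and 265 CPM (interval at 2 µM -0.22 to 0.01). Over the 10 genes the median log2 ratio was 0.22, 0.13 and 0.15 along the doses, against -0.01, 0.00 and -0.02 over all genes tested. With germ-cell marker centring it was 0.06, 0.12 and 0.28, so its order along the doses depends on the scaling.

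Scd1 and Scd2 are close paralogues that lie within the same cluster on chromosome 19 (GRCm38), Scd2 at chr19:44293676-44306864 and Scd1 at chr19:44394450-44407709, with Scd3 and Scd4 beside them. Their counts were whole numbers in 11 of 12 libraries, so a fractional split of reads by the authors' estimator shows in 1 library only. Of all counts assigned to Scd1 and Scd2, Scd1 held 7.44% with DMSO (95% Wilson interval 6.01 to 9.17, of 1062 counts). The share was 10.6% (8.98 to 12.5), 13.5% (11.8 to 15.5) and 16.2% (14.1 to 18.5) along the doses. The intervals at 1 and 2 µM do not reach that of DMSO. In the sorted fractions the share was 10.4% (9.08 to 11.98) in GFP-low, 16.0% (14.3 to 17.8) in GFP-mid and 20.1% (17.9 to 22.6) in GFP-high cells. There Scd1 itself hardly differed (22.4, 22.2 and 23.9 CPM) and Scd2 was the gene that differed (192, 116 and 94.8 CPM). In the other 5 libraries the share was between 6.92% and 9.78%.

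**Figure D3:**
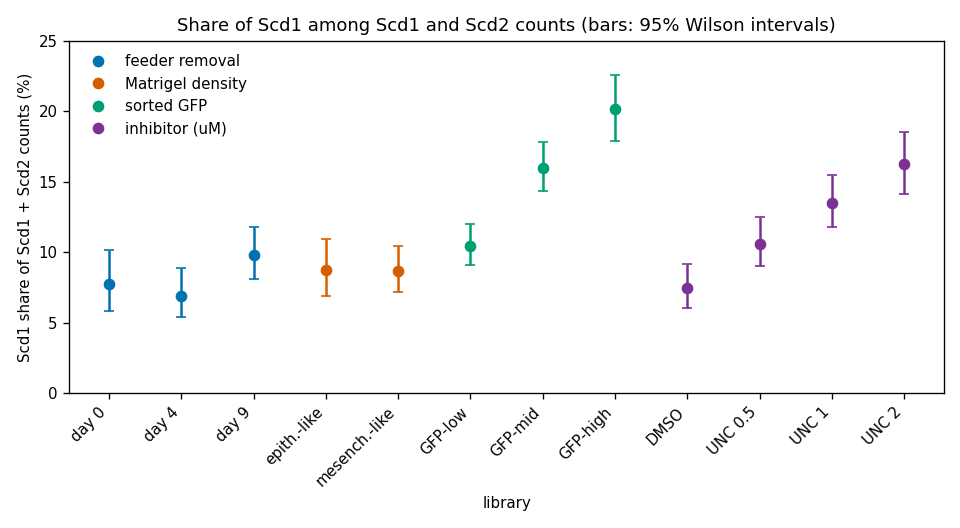
Percentage of Scd1 among the summed Scd1 and Scd2 counts (y axis, from 0) in each of the 12 libraries (x axis), with 95% Wilson intervals, coloured by experiment. The share goes from 7.44% with DMSO to 16.2% at 2 µM UNC0638, and from 10.4% in GFP-low to 20.1% in GFP-high cells.

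Among 22 other measured genes of fatty acid synthesis, elongation and desaturation, 5, 5 and 6 were called higher and 2, 2 and 1 lower along the doses, with medians of 0.00, 0.00 and 0.10. Scd3 was at 6.39 CPM with DMSO and at 11.0, 14.1 and 17.9 CPM, a log2 ratio of 1.35 (0.87 to 2.13) at 2 µM. Olah, a thioesterase that releases medium-chain fatty acids from fatty acid synthase, was at 5.79 CPM and then at 21.6, 19.7 and 26.1 CPM, a log2 ratio of 2.00 (1.57 to 2.81) at 2 µM. Both were called higher at all 3 doses. Mid1ip1, an activator of acetyl-CoA carboxylase polymerization, was at 15.4 CPM and then at 27.7, 20.4 and 24.97 CPM, and was called at 0.5 and 2 µM. Elovl4, an elongase of very long chains, was at 10.4 CPM and then at 20.8, 16.2 and 15.6 CPM, called at 0.5 and 1 µM.

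The gene lists of the wider pathway differed from each other in how they moved. On the TMM scale, 17, 18 and 17 of 19 genes of the sterol pathway had ratios above 0 along the doses, and 2, 1 and 2 below. Of these 19 genes, 3, 6 and 11 were called higher along the doses and 0, 1 and 1 lower, with medians of 0.33, 0.52 and 0.65. Fdps, which makes farnesyl diphosphate, was at 259 CPM with DMSO and then at 392, 436 and 478 CPM. Insig1, which holds the SREBP precursors in the endoplasmic reticulum and is itself an SREBP target, was at 244 CPM and then at 362, 427 and 442 CPM. Its log2 ratio at 2 µM was 0.86 (0.76 to 0.97), called at 1 and 2 µM. Srebf2, the precursor that mainly drives sterol genes, was not called (238 CPM with DMSO and 332, 265 and 280.2 CPM along the doses). Of 10 genes of SREBP control, Insig1 included, 0, 1 and 1 were called higher and 1, 1 and 2 lower, among them Mbtps2, a protease that cleaves SREBPs, at -0.64 at 2 µM. Of 20 fatty acid oxidation genes, 0 were called higher at any dose and 1, 1 and 2 lower, Cpt1c (-0.81) and Etfdh (-0.69) at 2 µM. Of 14 glycerolipid and lipid droplet genes, 0, 1 and 1 were called higher and 0, 0 and 1 lower: Lpin1 was higher at 1 µM (0.61), and at 2 µM the lipase Pnpla2 was higher (0.67) and the acyltransferase Gpam lower (-0.94). Of 6 mitochondrial fatty acid synthesis genes, 1 was called, higher at 2 µM.

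Fibroblast markers differed along the same doses, and which cells expressed them was not tested. Of 19 measured fibroblast markers, 17, 19 and 17 were called lower than with DMSO at 0.5, 1 and 2 µM, with Col1a1 at 1088 CPM with DMSO and at 302, 137 and 149 CPM. Lpl, of the adipocyte list, was called lower at all 3 doses (6.59 CPM with DMSO and 1.35, 0.349 and 1.83 CPM), as was Inhba, of the Sertoli and Leydig cell list (10.4, 2.31, 0.873 and 2.98 CPM). In all, 1, 2 and 1 of 4 adipocyte markers were called lower and 0, 1 and 0 higher, and 1 of 5 Sertoli and Leydig cell markers was lower at each dose and 1, 0 and 1 higher. Of 14 myeloid markers 2, 2 and 1 were called higher and 0, 1 and 0 lower, at summed levels of 10.2 to 15.6 CPM. The germ-cell markers had 0 calls in either direction at the 3 doses. The part of these cell types in the values of the 10 genes was not tested.

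**Figure D4:**
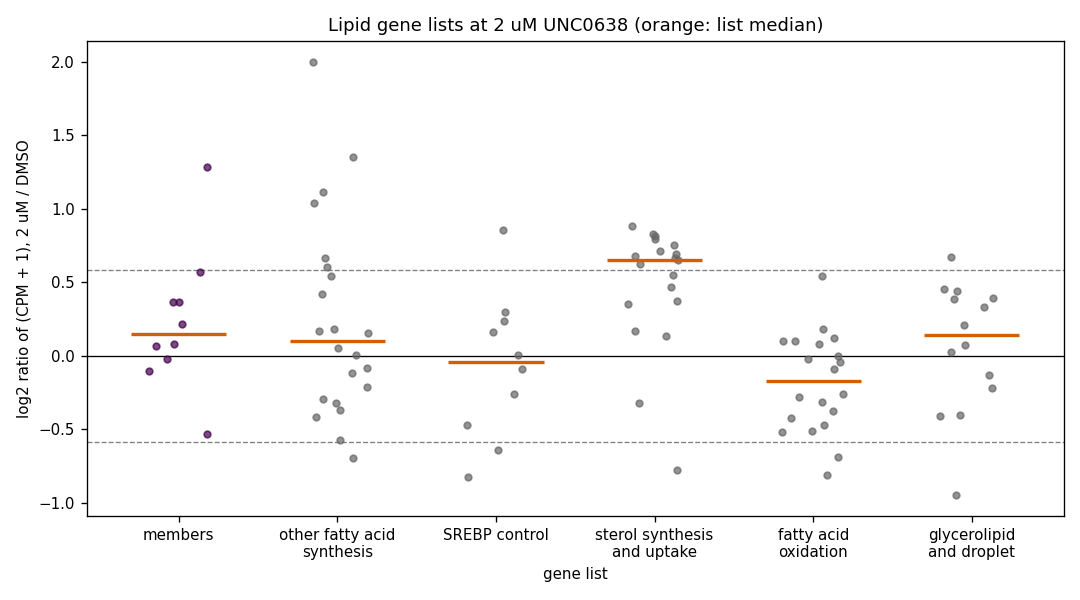
Log2 ratio of (CPM + 1) at 2 µM UNC0638 to DMSO (y axis) for each measured gene of 6 lipid gene lists (x axis, points spread sideways for visibility), with the list median as an orange bar and dashed lines at 1.5-fold. Sterol genes have the highest median (0.65), the 10 fatty acid genes lie at 0.15 with Scd1 at 1.28, and the oxidation genes at -0.17.

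The density experiment compares cells on dense Matrigel (mesenchymal-like) with cells on sparse Matrigel (epithelial-like). Both stearoyl-CoA desaturases were higher in mesenchymal-like cells. Scd2 was at 160.1 CPM in epithelial-like and 247 CPM in mesenchymal-like cells, a log2 ratio of 0.63 (0.49 to 0.77). Scd1 was at 15.3 and 23.4 CPM, a ratio of 0.59 (0.15 to 1.09) that lay at the 1.5-fold line. Thus 2 of 10 genes were called higher, where 18.0% of the genes tested were, and 0 of 10 lower (8.71%). Scaled by total counts, or taken from the deposited TPM, 0 of the 10 were called. With germ-cell marker centring 3 were called higher, Scd1 (0.88), Scd2 (0.92) and Fads1 (0.68), so the calls depend on the scaling.

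The other members lay on both sides of 0 between these libraries, with directions that depend on the scaling. Fads1 was at 62.0 and 81.1 CPM in epithelial-like and mesenchymal-like cells (log2 ratio 0.38, 0.15 to 0.63), and Fads2 at 49.1 and 40.3 CPM (-0.28, -0.59 to 0.02). Elovl6 was at 98.3 and 75.6 CPM (-0.38, -0.60 to -0.17), Acly at 549 and 473 CPM (-0.22) and Acsl3 at 267 and 219.7 CPM (-0.28). With germ-cell marker centring Fads2 (0.02), Acly (0.08) and Acsl3 (0.01) turned positive, and Elovl6 alone stayed below 0 (-0.08). Fasn (283 and 279 CPM, interval of the log2 ratio -0.14 to 0.10), Acaca (94.8 and 95.1 CPM, -0.20 to 0.21) and Srebf1 (176 and 186 CPM, -0.07 to 0.23) did not differ beyond counting error on the main scale.

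Of 22 other fatty acid synthesis genes, 6 were called higher and 3 lower in mesenchymal-like cells. Fads3, a further member of the Fads family, was at 2.11 CPM in epithelial-like and 29.7 CPM in mesenchymal-like cells. Acsl5, another acyl-CoA synthetase, was at 4.93 and 20.3 CPM, and the elongase Elovl1 at 19.5 and 44.9 CPM. Adfp (Plin2), a lipid droplet coat protein, was at 44.6 and 208 CPM. Fibroblast markers moved with these genes: 18 of 19 were called higher in the mesenchymal-like library, with Lox, a collagen cross-linking enzyme, at 22.3 and 1481 CPM. Of 14 measured myeloid markers 8 were called higher there as well (all 15 summed to 24.4 and 51.4 CPM), and of 5 measured Sertoli and Leydig cell markers 2, Inhba (1.64 and 76.1 CPM) and Sox9. Of 4 adipocyte markers 2 were called higher, Lpl (0 and 12 counts) and Fabp4 (0 and 9 counts). Of 19 germ-cell markers 17 had ratios below 0, with a median of -0.29, 1 called higher and 1 lower. The part of these cell types in the lipid gene values was not tested.

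In the sorted fractions the question is how expression follows the Oct4 reporter. Scd2 was the 1 gene of 10 that was called, and it was lower with more GFP. It was at 192 CPM in GFP-low, 116 CPM in GFP-mid and 94.8 CPM in GFP-high cells. The log2 ratio to GFP-low was -0.72 (-0.83 to -0.62) in GFP-mid and -1.01 (-1.14 to -0.90) in GFP-high cells, and -0.29 (-0.42 to -0.18) between those fractions. In each comparison with GFP-low 1 of 10 genes was called lower, where 4.38% (mid) and 8.82% (high) of the genes tested were, and 0 of 10 higher (11.4% and 16.3%). Scaled to the germ-cell markers, the GFP-mid ratio of Scd2 was -0.55, short of the call. A lower level at each step was seen for Scd2 and Elovl6 (104, 103 and 96.7 CPM), 2 of 10, where 26.9% of genes tested showed one, but the GFP-mid ratio of Elovl6 turned to 0.05 with total counts. A higher level at each step was seen for 0 of 10 (24.5%) on the TMM scale, and with germ-cell marker centring for 3, Fasn, Scd1 and Acsl3, where 39.5% of genes tested showed one.

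Most other members were lowest in the GFP-mid fraction. In GFP-low, GFP-mid and GFP-high cells, Fads1 was at 76.1, 60.4 and 77.3 CPM and Fads2 at 46.3, 36.8 and 48.5 CPM. Srebf1 was at 199.6, 162 and 191 CPM, and Acaca at 115, 96.4 and 116 CPM. Fasn was at 272, 246 and 271 CPM, Acly at 954, 817 and 897 CPM and Acsl3 at 320.2, 292 and 316 CPM. All of these had GFP-low and GFP-high cells close together with GFP-mid below both on this scale. All 10 ratios of GFP-mid to GFP-low were below 0, where 51.6% of genes tested were, with a median of -0.24 against -0.01 over all genes tested; those of Scd1 and Elovl6 were within counting error. This too depends on the scaling: with total counts or TPM Scd1 and Elovl6 were above 0, and with germ-cell marker centring Fasn (0.02), Scd1 (0.15), Elovl6 (0.16) and Acsl3 (0.03) were, with a median of -0.07. Between GFP-high and GFP-low the median was -0.01. Between GFP-mid and GFP-low, 6 of 19 fibroblast markers were called higher and 2 lower, and 1 of 19 germ-cell markers higher and 3 lower, with 13 below 0 and a median of -0.17. Of 4 adipocyte markers 1 was called higher there, and of 5 Sertoli and Leydig cell markers 1 higher and 1 lower. The part of these cell types in the lower GFP-mid values was not tested. Sterol genes also lay lower in GFP-mid cells, with a median of -0.24 and 3 of 19 called.

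Genes around Scd2 in the pathway differed in their direction between GFP-high and GFP-low cells. Insig1 was at 252, 173 and 139 CPM in GFP-low, GFP-mid and GFP-high cells, called lower in GFP-high cells. Scd3 was at 7.65, 13.1 and 13.8 CPM and Mod1 (Me1), malic enzyme, which supplies NADPH for fatty acid synthesis, at 17.2, 38.7 and 45.8 CPM, both called higher. Acacb, at 12.8, 8.39 and 4.46 CPM, was called lower. Of 22 other fatty acid synthesis genes, 5 were called higher and 5 lower in GFP-high cells. Of 14 measured myeloid markers, 14 were called lower in GFP-high than in GFP-low cells, whereas between GFP-mid and GFP-low 7 were higher and 7 lower with 0 called. Mpeg1, a macrophage gene, was at 66.7, 54.3 and 3.93 CPM. Of 19 fibroblast markers 11 were called higher and 1 lower in GFP-high cells (summed levels 113, 145 and 232 CPM). Of 5 measured Sertoli and Leydig cell markers 3 were called higher and 0 lower there, and of 4 adipocyte markers 1 higher and 1 lower. Of 19 germ-cell markers 3 were called higher and 3 lower there, with Utf1, a chromatin factor of undifferentiated spermatogonia, higher at 2.01, 5.62 and 14.6 CPM. Gfra1, the GDNF co-receptor, was lower at 176, 79.9 and 58.5 CPM, and so was Nanos2, a regulator of undifferentiated spermatogonia, at 26.3, 15.0 and 10.9 CPM. The part of these cell populations in the Scd2 values was not tested.

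Moving the cells from feeders to Matrigel was followed at 4 and 9 days. Against day 0, no member was called at either day: 0 of 10 at day 4, where 10.8% of the genes tested were called in either direction, and 0 of 10 at day 9, where 12.4% were. Among the 9598 genes whose mean reached 10 CPM, as it did for all 10 members, 3.68% were called at day 4 and 6.45% at day 9. On the main scale Elovl6 had the largest day 9 ratio, at 45.8, 49.5 and 61.4 CPM on days 0, 4 and 9, a log2 ratio of 0.42 (0.24 to 0.61) at day 9. Fads2 was larger with TPM (0.53 against 0.52), and Scd1 with 0.1 CPM added in place of 1 (0.44 against 0.42). Fads2 was at 19.7, 23.1 and 26.4 CPM (0.41, 0.14 to 0.71), and Fads1 at 60.9, 63.8 and 77.9 CPM (0.35, 0.19 to 0.52). Acsl3 was at 196, 213 and 249 CPM (0.34, 0.26 to 0.44). Elovl6, Fads2, Fads1 and Acsl3 were highest at day 9, with intervals above 0 but ratios under 1.5-fold. Fasn (108, 113 and 123 CPM) and Acly (707, 730.5 and 752 CPM) followed the same order with ratios of 0.19 and 0.09. The order of days was thus kept by 6 of 10 genes upward, where 19.8% of genes tested kept it, and by Srebf1 alone downward (89.97, 86.3 and 85.9 CPM; 17.9%). The upward order held for the same 6 genes with size factors, total counts, germ-cell marker centring and TPM, and the downward order of Srebf1 with none of these. The step from day 0 to 4 was within counting error for Fasn, Acly, Elovl6, Fads1 and Fads2. That from day 4 to 9 was within it for Acly and Fads2, and so were both steps of Srebf1. The median over the 10 was 0.27 at day 9, against 0.02 over all genes tested. At day 9, 3 of 19 fibroblast markers were called lower and 1 higher, with Acta2 at 44.98, 59.0 and 6.92 CPM on days 0, 4 and 9. Of 19 germ-cell markers 1 was called, Nanos2, lower on both days (9.59, 4.49 and 5.45 CPM), and 2 of 4 adipocyte markers were called higher on each day and 1 lower at day 4. Of 5 Sertoli and Leydig cell markers 1 was called higher on each day and 1 lower at day 9. The part of these cell types in the members' values was not tested.

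The remaining members had no such order over the days. Scd1 was at 5.96, 4.82 and 8.14 CPM, from 46, 57 and 100 counts, and its ratio of day 9 to day 0, 0.39, had an interval of -0.07 to 0.98. Between day 9 and day 4 Scd1 was called higher, with a log2 ratio of 0.65 (0.27 to 1.25), 1 of 10 members where 5.76% of the genes tested were, a call lost with 5 CPM added in place of 1 (0.42). Scd2 was at 71.0, 64.9 and 75.0 CPM and Acaca at 40.8, 51.0 and 46.5 CPM. Acaca was thus highest at day 4, with a log2 ratio of 0.31 (0.12 to 0.52). Of 22 other fatty acid synthesis genes, 2 were called higher and 0 lower at day 4, and 1 higher and 1 lower at day 9. The elongase Elovl7 was called higher on both days (4.80, 12.3 and 9.76 CPM) and Acacb at day 4 (6.74, 11.8 and 8.22 CPM). Insig1 (145, 139 and 149 CPM) and Srebf2 (55.6, 56.1 and 53.9 CPM) stayed within counting error.

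Across all 12 libraries, the genes whose log2(CPM + 1) pattern was most like the mean standardized pattern of the 10 were Ssrp1, Phf1, Chaf1a, Sema4d and Hyou1, with Pearson's r of 0.962 to 0.967 among 9598 candidates whose mean reached 10 CPM. Over the 9 libraries outside the feeder-removal experiment, r for these genes was 0.600 to 0.685. For single members, the most alike gene was Cntrob for Fasn (r = 0.989), Csk for Scd1 (0.957), Lrrc14 for Scd2 (0.961), Ptk7 for Acaca (0.982) and Cpxm1 for Acly (0.953). It was Clcn6 for Elovl6 (0.988), Nfkb2 for Fads1 (0.916), Pafah1b3 for Fads2 (0.964), Ap2a1 for Srebf1 (0.984) and Parp1 for Acsl3 (0.956). Among the members themselves, 39 of 45 pairs had a positive r over the 12 libraries, with a median of 0.703. Over the 9 libraries it was 28 of 45, with a median of 0.187, and the extremes were Acly with Acsl3 (0.932) and Fasn with Acaca (-0.752). All these values share the same libraries, and the gap between experiments enters every r over the 12.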

How the data were processed

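RNA libraries were made with a modified Smart-seq2 protocol, per the labels' protocols. The authors trimmed reads and quantified genes with Trim Galore and RSEM on mm10, per the submitters' processing notes; the aligner and annotation release are not given in the sources used here. The deposited tables hold expected counts, which need not be whole (8.52 to 10.7% of the 27128 genes per library were not), and TPM, per the file headers. Here the expected counts were scaled with TMM factors (edgeR 4.0.16, R 4.3.3) to CPM, genes whose mean reached 1 CPM were kept, and log2 ratios of (CPM + 1) were taken between single libraries. With 1 library per condition no p-value was computed; calls are ratios past 1.5-fold, or 2-fold where stated. The counting code was tested on simulated data. Intervals cover counting error only; 3 counts, the floor for a gene at 0, correspond to 0.238 to 0.724 CPM. Tables were matched by gene symbol; 181 of 184 listed genes were found. The members and gene lists were chosen with earlier results of these data known. All 10 members are named in each comparison. Under the rule for other genes, up to 3 per list with the largest ratios past 1.5-fold and at least 50 counts in the higher library (and, for UNC0638, 1 direction at all doses) could be named, plus Insig1, Srebf2 and Olah. The text names only some of these, and Lpl, Fabp4 and, between GFP-high and GFP-low, Scd3 were named outside the rule after their values were seen; 1 further gene under the rule is not reported here. Scaling, TPM, pseudocount and filter alternatives were tried (DESeq2 1.42.0 for size factors). The 4 ATAC libraries are not analysed here. RefSeq loci are of GRCm38.p6.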

Additional observations from a re-analysis of the deposited data

How the results depend on the processing

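No paired analysis was possible because each RNA condition is 1 library, and no library could be left out for the same reason. Each count of called members was recomputed under 8 alternatives: size factors, total counts, germ-cell marker centring, deposited TPM, pseudocounts of 0.1 and 5, and filters of none and of a mean of at least 10 CPM; 94 of these counts stayed within 1.5 times and 10 moved. For day 9 against day 4, the dose steps and GFP-high against GFP-mid, these alternatives were added after seeing the data, as were those for the orders over days and GFP fractions. Day 9 against day 4 went from 1 to 0 with a pseudocount of 5 (Scd1 0.42). For mesenchymal-like against epithelial-like cells, 2 members called became 0 with total counts, 0 with TPM, 1 with a pseudocount of 5 and 3 with germ-cell centring. GFP-mid against GFP-low went from 1 to 0 with germ-cell centring. At 0.5 µM UNC0638, 1 became 0 with germ-cell centring (Scd1 0.45), TPM (0.56) and a pseudocount of 5 (0.51). At 2 µM, 1 became 2 with total counts (Fads1 0.59) and germ-cell centring (Fads1 0.70). No member ratio that was called changed sign in these 13 comparisons. Germ-cell centring moved the median of all genes by 0.29 for mesenchymal-like against epithelial-like, 0.17 and 0.23 for GFP-mid and GFP-high against GFP-low, -0.16 at 0.5 µM and 0.13 at 2 µM, and by 0.14 for 2 against 1 µM. It moved the share of calls that were higher from 67.4 to 90.4%, 72.3 to 89.8%, 65.0 to 85.6%, 44.6 to 22.2%, 51.4 to 69.2% and 61.2 to 81.1% in those comparisons, in that order. TPM moved it to 77.5% for GFP-high against GFP-low. TPM moved the median of all genes by 0.14 there and by 0.11 at day 9. The number of all genes called also depended on the settings. Only genes whose mean reached 10 CPM gave 353 calls against 1540 at day 4, 619 against 1776 at day 9, 1707 against 3821 for mesenchymal-like cells, 1070 against 2260 for GFP-mid, 1823 against 3598 for GFP-high, 499 against 1967, 918 against 2581 and 1297 against 3160 at 0.5, 1 and 2 µM, 442 against 1426 for day 9 against day 4, and 3514 against 5920 for DMSO against day 0. A pseudocount of 5 gave 260, 460, 2198 (82.7% higher), 947, 1981, 532, 1099 and 1391 for the first 8 of these comparisons and 310 for day 9 against day 4, where a pseudocount of 0.1 gave 2246. At day 4 a pseudocount of 0.1 gave 2319 and no filter 2324. The number of members in dose order (2 rising, 1 falling) was the same with size factors, total counts and TPM; with germ-cell centring, an alternative chosen after seeing the data, 4 rose and 0 fell at every step. Over the days, 6 rose under each scaling, and the 1 that fell became 0 with size factors, total counts, germ-cell centring and TPM. Over the GFP fractions, 0 rising became 1 with total counts, 1 with TPM and 3 with germ-cell centring, and 2 falling became 1 with each of these. The filter tests fewer genes by construction; the cause of the other differences was not tested. Scd1 rests on 46 to 280 counts per library, so steps of 1.24-fold were within counting error.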
